A study of Homo sapiens with 28 samples.

Results

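The SR and SR-like splicing factor genes SRSF1 to SRSF7, SRSF10 and SRSF11, together with TRA2B, were followed through a nucleotide-recoding RNA sequencing experiment in HEK293T cells. The 10 genes were chosen by identifier in the deposited count table and by symbol in the authors' table of rate constants. They are SRSF1 (ENSG00000136450), SRSF2 (ENSG00000161547), SRSF3 (ENSG00000112081), SRSF4 (ENSG00000116350), SRSF5 (ENSG00000100650), SRSF6 (ENSG00000124193), SRSF7 (ENSG00000115875), SRSF10 (ENSG00000188529), SRSF11 (ENSG00000116754) and TRA2B (ENSG00000136527). They are 10 of the 34139 genes with at least 1 exonic or intronic read, and 24678 genes had at least 1 exonic read.

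SR proteins carry RNA recognition motifs and a domain rich in arginine and serine, bind exonic enhancers in pre-mRNA and recruit the spliceosome to the neighbouring splice sites. TRA2B is an SR-like protein that binds purine-rich enhancers. These genes are known for controlling their own output: several contain ultraconserved poison exons or retained introns, and transcripts that include them stay in the nucleus or are destroyed by nonsense-mediated decay.

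HEK293T is an established line of human embryonic kidney cells. The cells received 100 µM 4-thiouridine (s4U), a uridine analogue built into newly made RNA, for 2 h, or were left without it. Chemical conversion then makes s4U read as C, so new RNA carries T-to-C mismatches. Total RNA was converted with sodium periodate and trifluoroethylamine at pH 5.2 (NaIO4 + TFEA), with iodoacetamide, or with osmium tetroxide and ammonia (OsO4 + NH3), and each chemistry was applied to RNA from "drop out" handling and from improved handling. According to the series' design, the improved protocols aim to lose less labelled RNA and fewer reads with mismatches. Each of the 6 combinations of chemistry and handling held 2 labelled libraries and 1 unlabelled library, which gave 18 libraries in 12 groups. All cells were wild type, and the labels do not say whether replicates came from separate cultures, so the p-values measure the spread between these libraries, which may be technical. No sequencing batch is named, and a batch tied to handling cannot be told apart from handling.

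The libraries held 1935777 to 9962345 aligned reads. The share that did not name a single gene was 32.7% to 41.5% in drop-out libraries and 17.5% to 25.7% in improved ones. Ambiguous reads made up 11.6% to 16.1% in drop-out libraries and less in every improved library. Exonic reads that named a gene numbered 892727 to 2735236 in labelled drop-out libraries and 867400 to 2169913 in labelled improved ones. Levels are given as exonic CPM, the reads of a gene relative to the library's TMM-scaled total, and are not corrected for length, so they compare libraries for 1 gene and not genes with each other. In bulk RNA a lower level per cell and fewer cells with the RNA cannot be told apart. As CPM is relative to the total, a gene's CPM also depends on how the other genes changed.

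SRSF1 and SRSF6 needed a different column from the other members. By the gene column SRSF1 had no exonic read in any library, because 10617 of its reads carried a label shared with the overlapping gene ENSG00000266086. SRSF6 had 78 exonic reads by that column, and 5521 of its reads shared a label with ENSG00000288000. The table's exonic feature column assigned 3652 of the shared reads to SRSF1 and 3904 to SRSF6, while 6741 and 1019 stayed ambiguous in both columns. How these ambiguous reads were split between the handlings was not tested. The values of these genes below come from the exonic feature column, a choice made after seeing the data. SRSF2 shared 16.0% of its reads with ENSG00000283805, and every other member shared less than 1% of its reads.

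Most SR genes had more exonic reads under improved handling than under drop-out handling, with and without s4U. Of the 9 members tested by the gene column in labelled libraries, 6 rose and none fell. The largest changes were those of SRSF11, SRSF1 (by the exonic feature column) and SRSF10. Of all 12449 genes tested, 46.7% rose and 33.9% fell in this comparison, so most genes changed in one direction or the other (5813 and 4220 genes; 6991 and 3031 without TMM). The members' median log2 change was 0.84, beside 0.44 over all genes tested. Of the 10 members, 8 had every labelled improved library above every labelled drop-out library, as had 34.7% of all genes tested by the gene column and 34.6% by the exonic feature column.

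Among the classical SR proteins, SRSF1, the founding member of the family, ranged from 14.1 to 37.2 CPM in the 6 labelled drop-out libraries, with a median of 29.8. In the 6 improved libraries it ranged from 137 to 168 with a median of 154. The groups were far apart, and the log2 change was 2.54 ± 0.19 (SE; edgeR quasi-likelihood, adjusted p = 6.06e-11), where 47.0% of 13528 genes rose by this column. SRSF6 went from 27.4 to 76.3 (median 49.4) under drop-out handling to 109 to 173 (median 157) under improved handling. Its groups did not overlap, and it rose by 1.53 ± 0.17 on the log2 scale. The few reads of SRSF6 in the gene column went the other way, at a log2 change of -0.67 ± 0.68 that did not pass the test.

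SRSF3, a small SR protein that also adapts mRNA for export, had 89.4 to 151 CPM (median 113) under drop-out handling and 185 to 238 (median 206) under improved handling. SRSF5 had 73.7 to 115 (median 90.8) and then 162 to 204 (median 173). SRSF7, an SR protein with a zinc knuckle, had 69.5 to 104 (median 93.4) and then 135 to 159 (median 147). In these 3 genes every improved library stood above every drop-out library. The log2 changes were 0.84 ± 0.14 for SRSF3, 0.92 ± 0.14 for SRSF5 and 0.68 ± 0.13 for SRSF7, and the highest of their adjusted p-values in edgeR's quasi-likelihood test was 6.75e-05. When exonic and intronic reads were summed, none of the 3 passed the test, with log2 changes of 0.19, 0.23 and 0.03.

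SRSF2, a marker protein of nuclear speckles, and SRSF4 were the members whose levels overlapped between the handlings. SRSF2 had 139 to 188 CPM (median 172) under drop-out handling and 123 to 165 (median 142) under improved handling, and the groups overlapped. Its log2 change of -0.26 ± 0.13 did not pass the test (edgeR adjusted p = 0.0706). It was called in 9 of the 18 fits without 1 library, among them each fit without a labelled drop-out library, with values of -0.42 to -0.20 over the 18 fits, and in the fit with the replicate block, at -0.45. It was -0.28 and called by the exonic feature column (edgeR adjusted p = 0.0450), and turned to 0.30 and called without TMM, a scaling that moved the median of all genes from 0.44 to 0.995. SRSF4 had 167 to 400 (median 253) and then 212 to 345 (median 247), with the highest value in iodoacetamide drop-out replicate 2. Its log2 change was 0.04 ± 0.16. It was called higher at 0.61 without TMM and lower at -0.26 without iodoacetamide drop-out replicate 1, and the other 17 fits without 1 library gave values on both sides of 0.

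Of the SR-like members, SRSF11 and SRSF10 changed more than TRA2B. SRSF11 had 32.9 to 133 CPM (median 52.2) in labelled drop-out libraries and 377 to 575 (median 423) in improved ones. The highest drop-out value came from iodoacetamide replicate 1, and even that library lay well under every improved library. The log2 change was 2.79 ± 0.21 (edgeR adjusted p = 8.96e-11). SRSF10, which turns into a splicing repressor when dephosphorylated, had 42.1 to 66.6 (median 49.2) and then 147 to 247 (median 218). TRA2B had 72.0 to 120 (median 87.5) and then 161 to 234 (median 188). Neither gene's groups overlapped, and the log2 changes were 2.03 ± 0.14 for SRSF10 and 1.03 ± 0.15 for TRA2B.

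**Figure D1:**
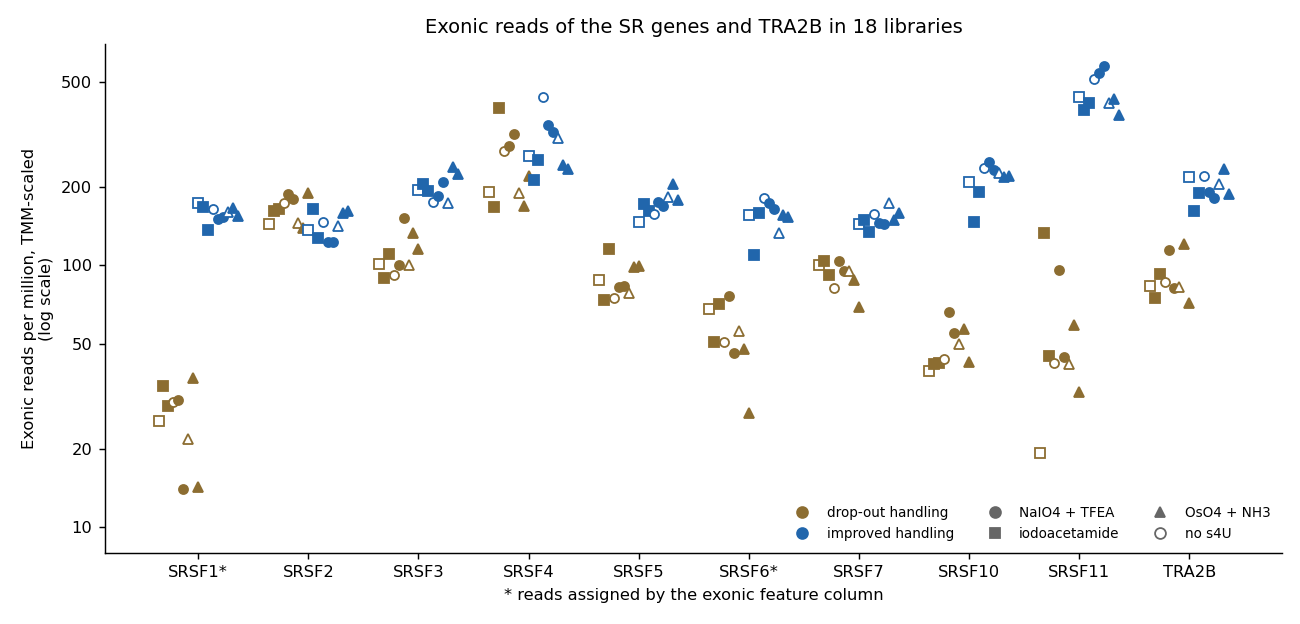
TMM-scaled exonic CPM (log axis) of the 10 genes in the 18 libraries; brown points are drop-out and blue points improved handling, marker shapes are the chemistries and open points have no s4U. Blue points lie above all labelled brown points in 8 genes, beside 34.7% of all genes tested, and the points of SRSF2 and SRSF4 overlap.

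The same contrast in RNA without s4U gave a like picture. In the unlabelled libraries 7 of 9 members rose and 1, SRSF6 by its few gene-column reads, fell at -1.72. That call of SRSF6 was lost in DESeq2, without TMM and in 5 of 18 fits without 1 library, each without an unlabelled one (any but that of NaIO4 + TFEA improved handling). Over all genes, 41.4% rose and 30.7% fell (5149 and 3826 genes; 6034 and 2845 without TMM). SRSF11 had 42.5, 19.2 and 42.1 CPM in the unlabelled drop-out libraries of NaIO4 + TFEA, iodoacetamide and OsO4 + NH3, and 515, 441 and 418 in the improved ones. Its log2 change was 3.81 ± 0.33. SRSF10 rose by 2.32 ± 0.21, TRA2B by 1.35 ± 0.21, SRSF5 by 1.01 ± 0.20, SRSF3 by 0.88 ± 0.19 and SRSF7 by 0.77 ± 0.18. By the exonic feature column SRSF1 rose by 2.69 ± 0.27 and SRSF6 by 1.42 ± 0.24, where 41.5% of genes rose.

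SRSF4 rose by 0.61 ± 0.23 without s4U (edgeR adjusted p = 0.0186). The call was lost at 0.47 to 0.61 when any 1 of the unlabelled libraries of NaIO4 + TFEA or OsO4 + NH3, or the iodoacetamide drop-out one, was left out. Each unlabelled group held 1 library, so their spread was taken from all groups.

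Whether the handling effect differed between labelled and unlabelled RNA was tested as an interaction. No gene passed (0.0% of 12449), although 914 had an unadjusted p under 0.05 in edgeR's test. The difference of the SRSF11 changes was -1.02 ± 0.39 (edgeR adjusted p = 0.613), that of SRSF4 -0.57 ± 0.27, and those of the other 6 members with more than a few reads per library by the gene column lay between -0.32 and -0.04.

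Comparing s4U with no s4U within a handling, no member passed the test. Under drop-out handling 0.217% of genes were called in the whole table, and under improved handling 0.225%. SRSF11 stood highest among the members under drop-out handling, with 1.0 ± 0.32 more on the log2 scale in labelled libraries (edgeR adjusted p = 0.231). It was called at 1.08 with no filter on low counts, at 1.27 without NaIO4 + TFEA replicate 2 and at 1.32 without iodoacetamide replicate 2. Without the unlabelled drop-out library of iodoacetamide it stood at 0.53 and without that of OsO4 + NH3 at 1.53, neither called. SRSF4 was called at 0.53 without iodoacetamide replicate 1.

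**Figure D2:**
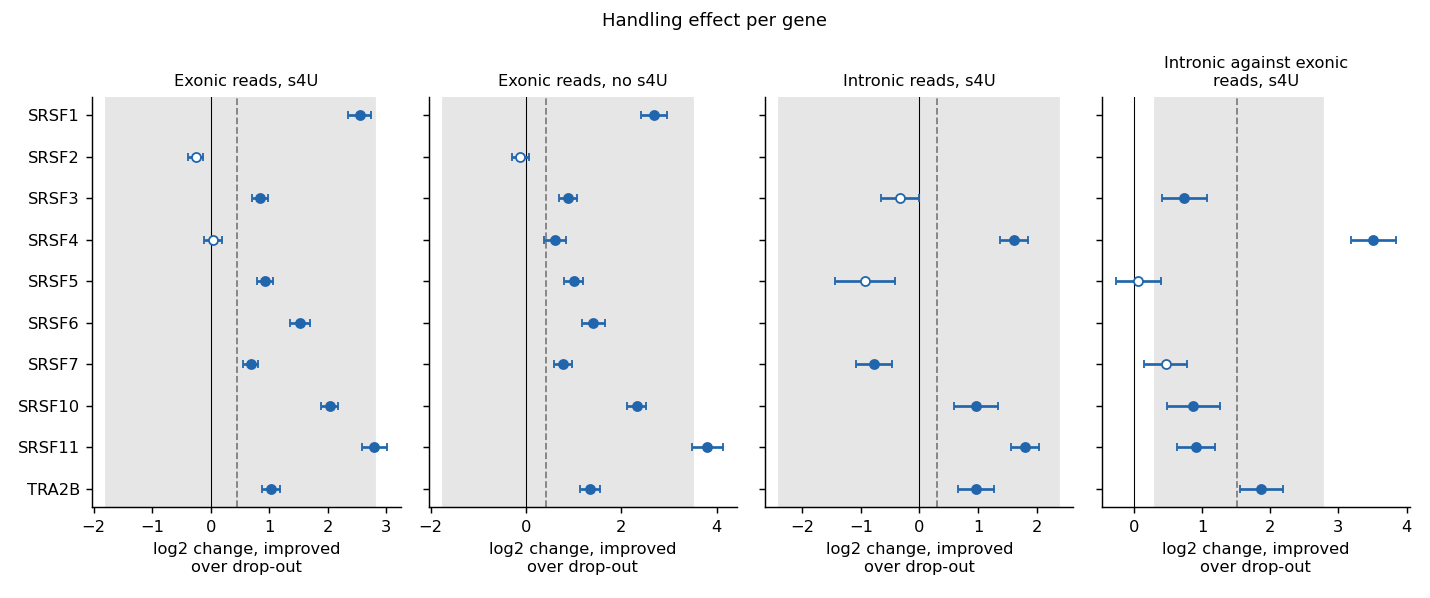
Log2 change from drop-out to improved handling (horizontal axis, ± SE) for exonic reads with and without s4U, intronic reads, and intronic against exonic reads. Filled points passed an adjusted p of 0.05, the grey band spans the 10th to 90th percentile of all genes tested and the dashed line is their median; most members lie to the right of the median for exonic reads and SRSF4 lies above the band in the last panel and SRSF5 below it, SRSF1 and SRSF6 being from the exonic feature column.

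Intronic reads of SRSF4, SRSF11, SRSF10 and TRA2B rose under improved handling. Of the 7 members with enough intronic reads for a test in labelled libraries, 4 rose (36.3% of 13154 genes rose) and 1, SRSF7, fell (29.7% fell). SRSF11 rose by 1.80 ± 0.24 and SRSF4 by 1.61 ± 0.24, while SRSF10 rose by 0.97 ± 0.38 and TRA2B by 0.96 ± 0.30. SRSF7 fell by 0.78 on the log2 scale, but this direction held with the scaling on intronic totals: with the exonic scaling, which moved the median of all genes from 0.30 to 2.29 and gave 9780 higher and 676 lower calls in place of 4775 and 3904, it was 1.15 and called higher. SRSF3, at -0.34 ± 0.32, and SRSF5, at -0.93 ± 0.52, did not pass the test, and with the exonic scaling they stood at 1.58, called, and 0.97, not called. SRSF5 was called lower, at -1.32, without iodoacetamide improved replicate 2. SRSF2 had too few intronic reads, and so had SRSF1 and SRSF6 by the gene column. A further 227 intronic reads of SRSF1 and 598 of SRSF6 carried a label shared with another gene and were not counted.

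Without s4U, 3 of the 7 members rose in intronic reads, against 32.4% of all genes (4259 higher and 3309 lower; 8412 and 469 with the exonic scaling). They were TRA2B at 2.20 ± 0.48, SRSF11 at 2.20 ± 0.38 and SRSF4 at 1.25 ± 0.30. TRA2B had 12, 1 and 6 intronic reads in the unlabelled drop-out libraries of NaIO4 + TFEA, iodoacetamide and OsO4 + NH3, and it stood at 1.29 without the iodoacetamide drop-out library and at 1.23 without the improved one, both called. SRSF5 stood at -1.55 and was called lower with STAR (-1.87) and without the unlabelled NaIO4 + TFEA drop-out (-2.17) or improved library (-2.22) or labelled iodoacetamide drop-out replicate 2 (-1.59). In labelled RNA, the calls of SRSF10 and SRSF7 rested on single libraries: SRSF10 was not called without NaIO4 + TFEA drop-out replicate 1 or improved replicate 1, iodoacetamide drop-out replicate 1 or OsO4 + NH3 improved replicate 1 (0.82 to 0.91), and SRSF7 was not called in 5 of 18 such fits (-0.77 to -0.52; without drop-out replicate 2 or improved replicate 1 of NaIO4 + TFEA, drop-out replicate 1 or improved replicate 2 of iodoacetamide, or drop-out replicate 2 of OsO4 + NH3), with STAR (-0.32) or in DESeq2 (-0.57).

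The balance of intronic and exonic reads within a gene does not depend on the scaling between libraries. In SRSF4, intronic reads made up 1.7% to 14.7% of the gene's reads in labelled drop-out libraries (median 3.76%) and 28.9% to 44.8% in improved ones (median 37.3%). The groups did not overlap, and the log2 ratio of intronic to exonic reads rose by 3.52 ± 0.33 (edgeR adjusted p = 1.84e-10). TRA2B went from 1.28% to 17.7% (median 8.89%) to 15.4% to 27.0% (median 24.9%), and the ratio rose by 1.87 ± 0.32. SRSF11 went from 9.01% to 33.7% (median 18.4%) to 23.9% to 41.0% (median 33.8%), and the ratio rose by 0.91 ± 0.27.

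In all, the ratio rose in 5 of 7 members tested, and in 76.2% of 7132 genes. The members' median log2 change was 0.87, under the 1.51 of all genes tested. SRSF10 (0.87 ± 0.39) and SRSF3 (0.74 ± 0.33) were the other members that rose, both at an edgeR adjusted p of 0.0430 to 0.0434. Neither of these 2 was called in the fit with the replicate block. SRSF10 kept its call in 2 of the 8 fits without 1 library in which it was tested, and SRSF3 in 4 of 12, standing at 1.15 without NaIO4 + TFEA drop-out replicate 1 and at 0.46 without replicate 2. SRSF7 (0.47 ± 0.32) and SRSF5 (0.06 ± 0.33) passed no test in this alignment, and both were called with STAR, at 0.87 and 1.07.

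Under improved handling SRSF4 and SRSF11 had intronic shares near the middle of the table, and several members had low ones. Over the pooled labelled libraries the intronic share was 36% in SRSF4, 33.7% in SRSF11, 24.2% in TRA2B, 12.7% in SRSF7, 10.1% in SRSF10, 9.52% in SRSF3, 3.96% in SRSF5 and 0.757% in SRSF2. The median of 5528 genes was 30.5%. Under drop-out handling SRSF4 had 4.23%, beside a median of 13.3%.

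The converted share, meaning the percent of reads in which 1 or more T positions read as C, was high in the SR genes, and 7 of them passed the test for a rise under improved handling at one of the read minimums used. All 6 members that reached 50 exonic reads in every library with s4U rose, as did 81.9% of 1992 genes tested. Their median log2 odds ratio was 1.39, beside 1.09 over all genes. Under improved handling their mean shares lay between the 85.0th and the 96.4th percentile of genes.

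TRA2B had 14.8% to 37.1% converted exonic reads under drop-out handling (median 24.4%) and 44.6% to 64.5% under improved handling (median 51.6%). These groups did not overlap, and the log2 odds ratio was 1.74 ± 0.27 (edgeR adjusted p = 9.86e-08). Among the 8 members read from the gene column, TRA2B had the highest share in 6 of 6 improved libraries, and it led in none of the drop-out libraries. It ranked above 96.4% of genes, and its pooled share was 53.8% (95% Wilson interval 51.7% to 55.9%, counting error only).

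SRSF5 went from 7.14% to 34.2% (median 14.0%) to 34.6% to 48.8% (median 41.1%), a log2 odds ratio of 1.86 ± 0.29. SRSF2 went from 11.4% to 28.4% (median 19.3%) to 29.2% to 43.9% (median 37.0%), and SRSF4 from 17.6% to 27.2% (median 20.7%) to 31.5% to 44.6% (median 38.8%). Their log2 odds ratios were 1.30 ± 0.27 and 1.13 ± 0.22. In these 3 genes, as in TRA2B, no drop-out library reached the lowest improved one, as was the case in 43.5% of the 1992 genes.

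SRSF7 had 7.27% to 41.2% (median 16.7%) and then 37.1% to 48.2% (median 41.5%), and SRSF3 had 15.5% to 32.3% (median 26.8%) and then 29.0% to 48.2% (median 38.9%). The highest drop-out value of SRSF7 came from OsO4 + NH3 replicate 1, whose partner replicate held the lowest. Both genes' groups overlapped, with log2 odds ratios of 1.48 ± 0.31 and 0.92 ± 0.26 that passed the test. In the order of the improved medians, from TRA2B through SRSF7, SRSF5, SRSF3 and SRSF4 to SRSF2, each gene's range overlapped that of the next.

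SRSF10, SRSF11, SRSF1 and SRSF6 had fewer than 50 reads in some drop-out library. With a minimum of 20 reads, at which 70.6% of 4084 genes rose, SRSF10 rose by 0.96 ± 0.30 and SRSF11 stood at 0.14 ± 0.26, which did not pass the test. SRSF11 had 15.4% to 43.9% (median 30.4%) under drop-out handling and 28.7% to 41.9% (median 32.7%) under improved handling, so its drop-out range held the whole improved range. By the exonic feature column at the same minimum, SRSF6 stood at 0.63 ± 0.32 (edgeR adjusted p = 0.0690). SRSF1 had as few as 12 reads in a library and was not tested; its share was 17.1% (95% Wilson interval 12.4% to 23.2%) over the pooled drop-out libraries and 34.5% (32.4% to 36.7%) over the improved ones, intervals that cover counting error only. Over single libraries SRSF1 had 6.35% to 28.9% and 17.5% to 44.8%, and these ranges overlapped.

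**Figure D3:**
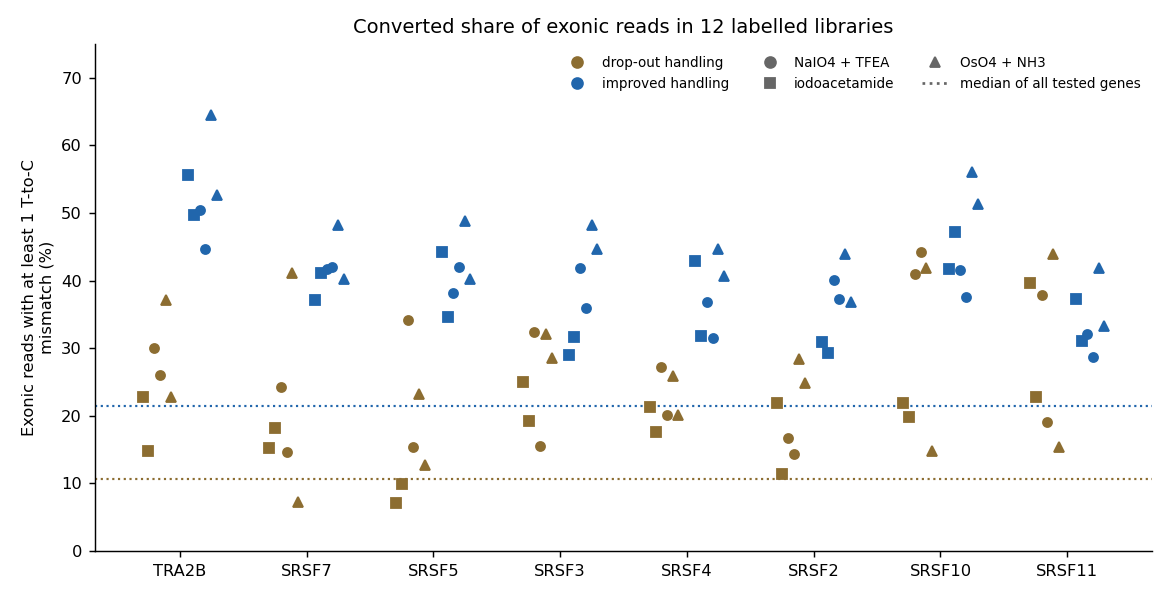
Converted share (percent) of exonic reads in the 12 labelled libraries (points; shapes are chemistries) for 8 genes, with dotted lines at the medians of the 1992 genes tested, 10.6% under drop-out (brown) and 21.5% under improved handling (blue). The blue points of all 8 genes lie above the blue line, and TRA2B holds the highest blue points.

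Within single chemistries the handling effect was positive in all 6 members with 50 reads in every library, and fewer passed the test. With iodoacetamide 5 of 6 rose, beside 46.9% of the 1992 genes, with NaIO4 + TFEA 4 rose, beside 45.4%, and with OsO4 + NH3 3 rose, beside 51.5%. At the minimum of 20 reads, SRSF10 stood at -0.17 ± 0.50 with NaIO4 + TFEA, which did not pass the test, and rose by 1.63 ± 0.54 with iodoacetamide and by 1.43 ± 0.53 with OsO4 + NH3; its interaction of chemistry and handling had an unadjusted p of 0.027 and an edgeR adjusted p of 1. SRSF11 stood at -0.01, 0.18 and 0.26 in the same order and passed no test. SRSF5 and TRA2B had their largest log2 odds ratios with iodoacetamide, 2.68 ± 0.53 and 2.36 ± 0.49, and their smallest with NaIO4 + TFEA, 1.03 ± 0.50 and 1.21 ± 0.47. These differences did not pass: no gene was called for an interaction of chemistry and handling (0.0% of 1992, 22 at an unadjusted p under 0.05 in edgeR's test) or for a difference of chemistries under improved handling (0.0%, 49 at an unadjusted p under 0.05). Both counts are smaller than a level of 0.05 gives without any effect. The tests were thus conservative, and their lack of calls does not show equal chemistries.

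The number of T positions per read differs between genes and bears on the share. SRSF4 had 21.6 T per exonic read under improved handling, fewer than in all but 1.91% of genes, while SRSF3, SRSF7, TRA2B, SRSF5 and SRSF2 had 37.1 to 41.6 beside a median of 32.7. All 6 had fewer under drop-out handling, 18.3 in SRSF4 and 33.6 to 40.6 in the others, beside a median of 32.4. Per 100 T under improved handling, SRSF4 had the highest rate of T-to-C among the 6, 4.74, followed by TRA2B with 4.63. The others had 2.99 to 3.26 beside a median of 1.64. An estimate of the share of new reads that takes the T positions into account, from a mixture of 2 binomials, was 58.7% ± 3.19 (SD, n = 6) for SRSF4 and 56.3% ± 5.23 for TRA2B under improved handling. The other 6 members with gene-column reads lay between 37.7% and 47.5%, and all exonic reads together had 23.6% to 31.7%.

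Converted reads of SR genes also carried many mismatches each. Over the pooled improved libraries TRA2B had 3.66 mismatches per converted exonic read, SRSF3 3.44, SRSF2 3.39, SRSF7 3.38, SRSF5 3.13 and SRSF4 2.70, and the median gene had 2.5. Under drop-out handling TRA2B had 2.99, above 99.7% of genes.

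Introns are short-lived, and in each member tested they carried more label than the exons. All 6 members with enough reads of both kinds had a higher converted share in introns under improved handling, as did 98.3% of 4719 genes. SRSF3 had 88.6% to 100% converted intronic reads (median 91.8%) in the improved libraries, TRA2B 71.0% to 94.3% (median 91.4%) and SRSF10 75% to 88.3% (median 84.6%). SRSF7 had 66.7% to 89.1% (median 80.1%) and SRSF4 70.1% to 86.5% (median 78.2%). In each of these genes every intronic value lay above every exonic value, as in 93.4% of the 4719 genes. The log2 odds ratios of intronic against exonic reads were 4.16 ± 0.44, 2.99 ± 0.36, 2.54 ± 0.40, 2.51 ± 0.41 and 2.69 ± 0.29 in the same order.

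SRSF11 had the lowest median of these 6 members, with 48.6% to 73.4% (median 60.8%) of its intronic reads converted and a log2 odds ratio of 1.71 ± 0.28. Its pooled intronic share was 64.8% (95% Wilson interval 63.0% to 66.6%, 2561 reads, counting error only), and only 9.21% of 6491 genes had a lower one. The median of those genes was 84.7%. The members' median log2 odds ratio was 2.61, under the 3.53 of all genes tested.

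Under drop-out handling the same 6 members were called, as were 80.7% of genes, on few intronic reads. Each member had 22 to 110 intronic reads in all 6 drop-out libraries together. The log2 odds ratios were 3.52 ± 0.66 for SRSF3, 3.33 ± 1.02 for SRSF10, 3.29 ± 0.48 for SRSF4, 2.18 ± 1.01 for TRA2B, 1.84 ± 0.47 for SRSF11 and 1.54 ± 0.59 for SRSF7. Without NaIO4 + TFEA drop-out replicate 1 SRSF11 stood at 0.04 and TRA2B at 1.53, neither called, and TRA2B was not called without OsO4 + NH3 drop-out replicate 1 (2.09) or with at least 2 mismatches required of a converted read (1.26). SRSF10 stood at 5.14 without NaIO4 + TFEA drop-out replicate 2. SRSF7 was not called without replicate 2 of NaIO4 + TFEA or of iodoacetamide (both 1.34). No member had 20 intronic reads in each labelled library, so the handling effect on the intronic share was not tested as planned. With at least 20 intronic reads summed per handling, where 52.7% of 9316 genes rose, TRA2B rose by 2.55 ± 0.84 and SRSF7 by 2.47 ± 0.72, and the other 5 members tested did not pass.

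**Figure D4:**
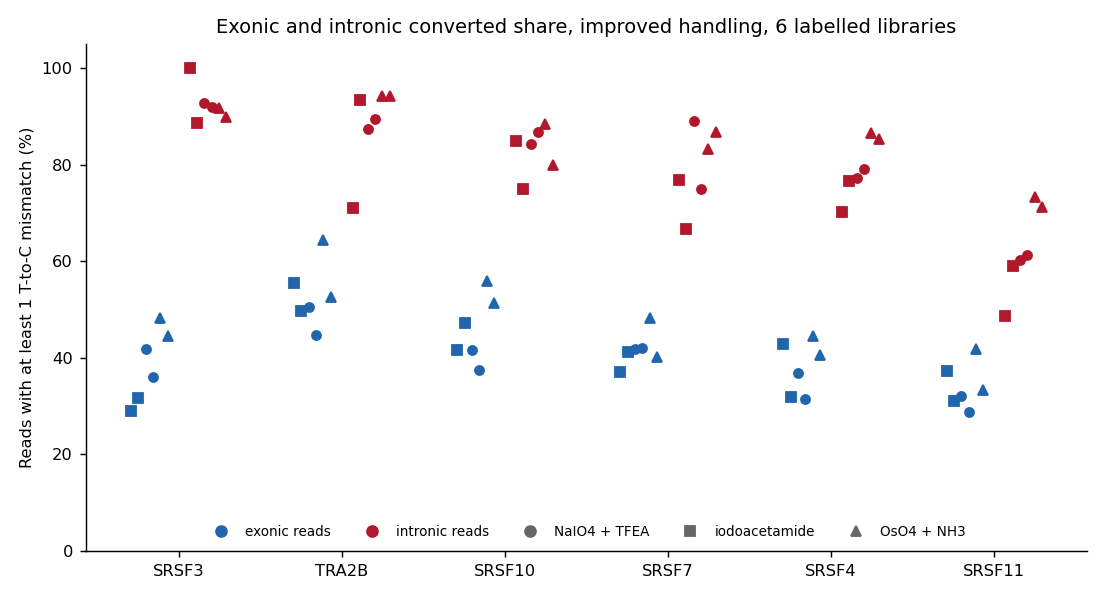
Converted share (percent) of exonic (blue) and intronic (red) reads in the 6 labelled improved-handling libraries; shapes are the chemistries. Intronic points lie above the exonic points of the same gene in all 6 genes, and those of SRSF11, at 48.6% to 73.4%, reach lowest and overlap the intronic points of SRSF7, SRSF4 and TRA2B.

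The aligner moved the converted share of the SR genes. Compared with HISAT-3N on the same reads, STAR gave lower shares in all 6 members tested (exact sign-flip permutation test over 12 libraries, two-sided, Benjamini-Hochberg), and 54.9% of 1978 genes were lower. SRSF5 changed by -5.47 ± 2.91 percentage points (SD over 12 libraries, lower in 12 of 12) and SRSF3 by -4.55 ± 2.46 (lower in 11 of 12), while the median gene changed by -1.26. STAR also aligned more reads to these genes, 3377 against 2591 for SRSF5 and 3747 against 3061 for SRSF3. The other members changed by -2.80 (TRA2B) to -1.32 (SRSF4) points, and SRSF2, at -1.49, was not called under the other STAR settings.

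HISAT2 with settings D was lower in all 6 members and in 97.4% of genes, with SRSF3 at -11.1 and TRA2B at -10.6 points. With HISAT2 settings VL the direction turned, and 69.6% of genes were higher. SRSF2 gained 4.71 points and SRSF4 2.10, both called, whereas SRSF5 (-1.82) and SRSF3 (-0.26) stayed on the lower side without passing the test. What the settings codes stand for is not given in the sources used here.

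For degradation rate constants the authors' deposited table listed 8 members in the part named TimeLapse, 5 for SLAM and 4 for TUC. In the authors' deposited table every listed member had a constant above the table's median under improved handling. In the TimeLapse part of the authors' deposited table SRSF4 had 0.315, TRA2B 0.309, SRSF2 0.276, SRSF6 0.250, SRSF7 0.244, SRSF5 0.222, SRSF3 0.204 and SRSF1 0.116, beside a median of 0.102; the time unit is not stated. SRSF4 ranked above 94.1% of that part of the authors' deposited table and TRA2B above 94.0%. SRSF1 stood lowest, above 56.9%.

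The constants were compared between improved and drop-out handling. Of the members in the authors' deposited table, 5 of 8 rose for TimeLapse (52.6% of 2209 genes), 3 of 4 for TUC (48.1% of 2262) and 3 of 5 for SLAM (48.9% of 1600). SRSF5 had the largest log2 change among the members in the authors' deposited table, 3.48 for SLAM and 2.26 for TUC, but 1.24 for TimeLapse. Its drop-out constant in the authors' deposited table was 0.0191 for SLAM, 0.0511 for TUC and 0.0975 for TimeLapse. SRSF6 had 0.256 and 0.250 in the authors' deposited table, a log2 change of -0.02 that was not called. SRSF4 was called in none of the 3 parts of the authors' deposited table, with log2 changes of 0.53 to 0.60.

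**Figure D5:**
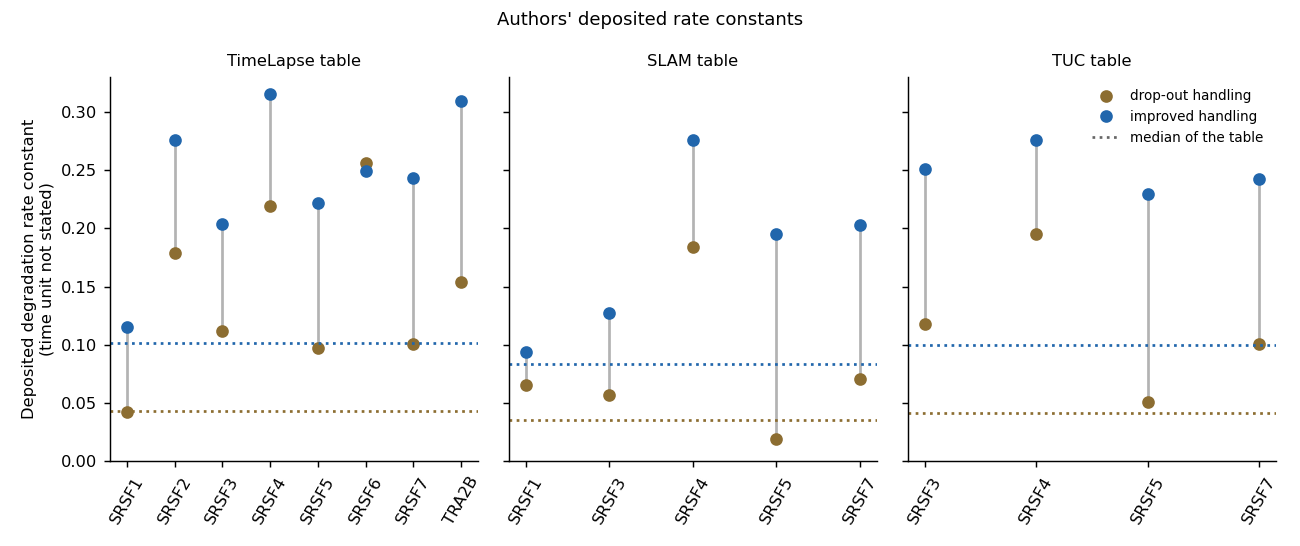
Degradation rate constants of the listed members in the authors' deposited table (vertical axis; time unit not stated) under drop-out (brown) and improved handling (blue), 1 panel per part of the table, with dotted lines at the medians of all rows. Blue points lie above the blue line in each panel, and SRSF6 is the gene whose points nearly coincide, at 0.256 and 0.250.

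Other splicing genes could be followed in that table alone, because identifiers of non-members were not paired with symbols. In the TUC part of the authors' deposited table, 8 of 15 other SR and SR-like proteins were listed, 5 were called and all 5 rose, beside 48.1% of all genes of that part. Their median constant under improved handling was 0.248 in the authors' deposited table, beside 0.247 for the 4 members listed. In the SLAM part of the authors' deposited table it was 0.253 beside 0.195, and in the TimeLapse part 0.242 beside 0.247. In the TUC part, SCAF4 (0.455) and SCAF8 (0.389), which bind the tail of RNA polymerase II, had the highest constants of that list in the authors' deposited table, and SRSF9 (0.0969) and SRRM2 (0.111), a scaffold of nuclear speckles, the lowest.

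The hnRNP proteins, RNA-binding proteins that often oppose SR proteins at splice sites, had a median constant of 0.131 under improved handling in the TUC part of the authors' deposited table, beside 0.0998 over all genes of that part. Of the 17 listed in that part of the authors' deposited table, 13 were called and all rose, against the 48.1% of all genes. The hnRNP medians were 0.106 in the TimeLapse part and 0.0950 in the SLAM part of the authors' deposited table, beside 0.102 and 0.0834 over all genes. Among them in the TUC part HNRNPU had 0.221 and HNRNPA0 0.213, and HNRNPK had 0.0598 and HNRNPM 0.0714 in the authors' deposited table. The U1 and U2 snRNP and U2AF proteins, core parts of the spliceosome, had a median of 0.0985 in the TUC part of the authors' deposited table, beside the same 0.0998, and 6 of 10 were called, all higher, against the 48.1% of all genes. SF3B3 (0.216) and SNRNP70 (0.122) were highest among them and SNRPC (0.0442) and SF3A3 (0.0519) lowest in the authors' deposited table. Of the SR protein kinases and import factors only TNPO3, which carries SR proteins into the nucleus, was listed, with 0.0876 and no call in the authors' deposited table.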

How the data were processed

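The authors deposited read counts for each combination of library, aligner, settings, contig, gene, exonic feature, intronic flag, T-to-C mismatch number and T position number; the last pair are other whole-number values of the deposited table. Genome build GRCh38 and the tools cutadapt, HISAT2, STAR, HISAT, Picard, HTSeq and DESeq2 are named in the submitters' processing notes, with no versions or order. The authors also deposited rate constants (other values, with no time unit), their log2 fold changes and adjusted p-values; the deposited log2 value is improved over drop-out handling, found from the constants. Of its 2568 names 2432 matched a RefSeq symbol. Members were assigned by identifier, and the marker genes of the cell line could not be paired with identifiers. Of 28 samples, 18 were analysed here and 10 of other chemistries were not analysed here.

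HISAT-3N D was the main alignment. Counts were summed per gene, filtered with filterByExpr, scaled by TMM and fitted with edgeR 4.0.16 (R 4.3.3; quasi-likelihood) over 12 groups, with contrasts averaged over chemistries. Shares were fitted on the 2 read classes (converted or not) with library as a term, for genes that reached 50 exonic reads in every library with s4U; the intronic to exonic ratio needed at least 20 intronic and 50 exonic reads per handling, and the intronic against exonic shares 20 of each in each labelled improved library. The estimate is a log2 odds ratio. The SE is the estimate over the root of F, and adjusted p-values (Benjamini-Hochberg over all genes tested, threshold 0.05) are from edgeR unless named otherwise. Alignments were compared by 4096 exact sign flips. Replicates of a group differed beyond sampling noise (ratio of chi-square to degrees of freedom 2.09 to 7.74), so none was merged. Within a chemistry, same-numbered drop-out and improved replicates did not deviate together gene by gene in exonic counts (correlations of -3.97e-05 to 0.0058). Nor did they in the log2 odds of conversion (0.0063 to 0.026 over 1992 genes). The library numbered 1 had the higher T-to-C rate of new reads in 6 of 6 groups. The median difference in log2 odds of conversion (number 1 minus 2) was 0.51 to 0.55 under drop-out and 0.03 to 0.29 under improved handling. Whether same-numbered libraries of different chemistries came from the same RNA was not tested. The replicate block was fitted within each chemistry. On simulated data with 200 changed genes, the fits recovered 100% of changes of log2 2 in exonic counts. For changes of log2 1.5 they recovered 96.0% in exonic shares, 78.5% in the intronic to exonic ratio and 86.5% in the intronic against exonic share. Unchanged genes that were called numbered 11, 9, 4 and 4 in the same order. For exonic counts the 200 were among 11775 genes, and the reported labelled fit called 10033 of 12449. Recovery with most genes changed was not tested.

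The 10 members and the lists were chosen with earlier results of these data known. Every member is named, and of each other list the 2 largest and 2 smallest constants of the TUC table. The result of 1 further list is not reported here. The authors' rule for reads of several genes, and their strand setting, is not given in the sources used here. Alternatives are described in the closing section. Intervals are 95% Wilson intervals. Python 3.11.15, pandas 2.3.3, scipy 1.17.1 and DESeq2 1.42.0 were also used.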

Additional observations from a re-analysis of the deposited data

Results flagged for a closer look

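Among 40 sets of 6 labelled libraries of 1 handling, 2 held a library far from the other 5 by Dixon's criterion, which chance gives in about 1 set in 20. SRSF5 had 203.9 exonic CPM in OsO4 + NH3 improved replicate 1, and the next highest library had 177.4. SRSF6, by the exonic feature column, had 109.1 in iodoacetamide improved replicate 1, and the next lowest had 153.6. Both genes were called in each fit that left out 1 library, with log2 changes of 0.70 to 0.96 for SRSF5 and 1.26 to 1.69 for SRSF6.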

How the results depend on the processing

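Counts of members called stayed within 1.5 times the reported ones under the other alternatives run, except the following. Further exceptions, the replicate block for the intronic to exonic ratio and some fits without 1 library, are given below. The cause of the exceptions was not tested unless the setting itself leaves fewer or more genes or reads. With the exonic scaling 6 rather than 3 members were called for intronic reads without s4U, and SRSF3 (1.58 with s4U, 1.5 without), SRSF5 (0.97 and 0.37) and SRSF7 (1.15 and 1.22) changed sign. At a minimum of 200 exonic reads no member was left for the converted share (0 called), and with 20 intronic reads summed per handling, chosen after seeing the data, 2 were called for the intronic share. With no filter on low counts 1 member was called for s4U under drop-out handling. HISAT2 settings VL left 2 calls against HISAT-3N, and SRSF2 (4.71 points), SRSF7 (2.85), SRSF4 (2.10) and TRA2B (1.83) turned higher.

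For exonic counts SRSF2 turned to 0.30 with s4U and 0.33 without s4U when TMM was left out, and SRSF4 to -0.076 with no filter and to -0.076 with intronic reads added. Leaving out 1 library gave 6 to 8 members called for exonic counts with or without s4U (with s4U, SRSF4 at -0.26 to 0.19, SRSF6 by the gene column at -1.11 to 0.23), 3 to 5 for intronic counts, 3 to 4 for the intronic to exonic ratio (SRSF5 at -0.28 to 0.24), 4 to 6 for the intronic against exonic share under drop-out handling and 0 to 1 for s4U under drop-out handling. For single members, 241 values under the other alternatives kept their direction and side of the threshold, 16 lost the call, 10 gained one and 15 changed sign.

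The labels' replicate numbers are shared between groups. By gene-wise correlations they did not pair drop-out with improved libraries within a chemistry, and pairing across chemistries was not tested. The library numbered 1 had the higher T-to-C rate of new reads in 6 of 6 groups. The blocked fit of the exonic converted share, with a block within each chemistry, called the same number of members, 6. With the replicate block 3 members rather than 5 were called for the intronic to exonic ratio (SRSF10 at 0.88 and SRSF3 at 0.72 missed), SRSF4 turned to -0.11 and SRSF2 was called at -0.45 for exonic counts, and SRSF10 (0.87) was not called for intronic counts; no other call of a member changed in the blocked fits.

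Over all genes, calls for s4U under drop-out handling numbered 27 in the reported fit, 97 with no filter, 47 without TMM and 44 in DESeq2, and under improved handling 28, 50 with no filter and 8 with STAR. The interaction of handling and label gave 0, and 10 with no filter. For the converted share, 1631 genes were called of 1992, 2886 at a minimum of 20 reads and 308 at 200; for the intronic share 602 were called, 1578 at a lower minimum and 4923 with reads summed per handling. By the gene column the members' intronic reads numbered 0 to 41 per drop-out library, which limits the precision of their intronic shares.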
